A study of Mus musculus with 6 samples.

Results

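Translation initiation factors are proteins that place a ribosome at the start codon of an mRNA. The genes named for them were taken from the table of gene counts as every row whose symbol begins with Eif1 to Eif6. The names include the eIF2 kinases (Eif2ak) and the eIF4E-binding proteins (Eif4ebp), which inhibit initiation. They also include genes with other main roles, among them Eif4a3, Eif4enif1 and Eif1ad. Left out were 4 pseudogene rows ending in -ps. That gave 56 of the 38924 rows. The rule used names only and no measured value. RNA was sequenced from 6 cultures of naive splenic CD4+ T cells from C57 BL/6 mice, all stimulated for 72 h with anti-CD3 and anti-CD28 in the presence of TGFb1, IL-6 and IL-23, which drive Th17 differentiation. CX-4945 (silmitasertib), an ATP-competitive inhibitor of protein kinase CK2, was present in 3 cultures and its solvent DMSO in 3, and no group carried a mutation. The dose is labelled 2 mM, and nothing in the files tests that unit. Replicates are described as biological, but no label ties a culture to a mouse of its own, and the p-values cover the spread between these 6 cultures.

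In cap-dependent initiation, eIF2 brings the initiator tRNA to the small ribosomal subunit as a complex with GTP, eIF1 and eIF1A hold the subunit open for scanning, and the multisubunit eIF3 ties the parts together. The eIF4 factors bind the cap and unwind the leader, and 4E-BP proteins block this step by holding eIF4E until mTORC1 phosphorylates them. Stress kinases phosphorylate eIF2 and so block its recharging by eIF2B, and CK2 itself is known to phosphorylate the beta subunit of eIF2 and eIF5. Those steps act on proteins, and the values here are RNA.

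The columns number the CX-4945 libraries 2, 4 and 6 and the DMSO libraries 1, 3 and 5, and those numbers are used here. The libraries held 22178614 to 26148189 uniquely placed exon reads. CPM are unique exon reads scaled to a common library total of 1e6, with each total adjusted by a TMM factor. Without that factor 3 reads, the limit a count of 0 allows, equal 0.115 to 0.135 CPM, for counting error only. Markers of CD4 T cells were abundant in every library, but the sum of 7 markers (Cd3d, Cd3e, Cd3g, Cd4, Trac, Cd28 and Lck) was 2033 to 2072 CPM with CX-4945 and 3184 to 3350 CPM with DMSO. All 7 were lower in every CX-4945 library than in every DMSO library, as were 34.8% of all genes tested. All but Lck, 6 of the 7 (85.7%), were lower at an edgeR adjusted p under 0.05, against 31.3% of all genes. Sums for 5 B cell markers (9.13 to 9.96 CPM with CX-4945, 9.73 to 14.2 CPM with DMSO), 5 macrophage markers (17.3 to 31.8 CPM with CX-4945, 11.2 to 17.7 CPM with DMSO) and 2 CD8 markers (14.2 to 23.1 CPM with CX-4945, 19.9 to 28.0 CPM with DMSO) were low, and so were those for 3 NK cell markers (5.04 to 5.92 CPM with CX-4945, 4.28 to 4.72 CPM with DMSO) and 4 erythroid markers (0.177 to 0.685 CPM with CX-4945, 0.0835 to 0.376 CPM with DMSO). The part of these differences in the results was not tested. In bulk RNA, fewer cells of a type and less RNA per cell cannot be told apart.

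Initiation factor genes were more often higher than lower in CX-4945 cultures. Of the 56 genes, 52 had enough reads to test, and 28 rose, 7 fell and 17 did not pass an edgeR adjusted p of 0.05. The 28 that rose were 53.8% of those tested, against 30.6% of all 12502 genes tested, and the 7 that fell were 13.5%, against 31.3%. The share called in either direction was 67.3%, near the 61.9% over all genes. The median log2 fold change was 0.18 over the 52 genes and -0.003 over all genes. Changes were small. Rises ran from 1.11-fold to 2.13-fold with a median of 1.23-fold, and falls from 1.16-fold to 2.08-fold with a median of 1.24-fold. Only 4 genes rose by 1.5-fold or more, Eif1ad, Eif5a2, Eif4enif1 and Eif2b3, while 11.2% of all genes tested did, and 1 gene, Eif4ebp1, fell by as much, while 16.9% of all genes did. The libraries of the groups did not overlap for 41 of the 52 genes, 32 of them higher and 9 lower with CX-4945, and over all genes 69.7% did not overlap, 35.0% higher and 34.8% lower. Eif3j2 (8 unique reads over all libraries), Eif4ebp3 (1 read), Eif4e1b (0 reads) and Eif2c5 (0 reads, a row named for an Argonaute-like gene rather than an initiation factor) were too low to test. Calls are from the edgeR quasi-likelihood F test on unique exon reads.

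Reads that match several loci are absent from these counts. The authors' deposited table also gives a mean for each group, whose header names no unit. From its values it was taken as a mean RPKM (reads per kilobase of exon and per 1e6 reads) in which shared reads are counted. That mean was divided by the RPKM of unique exon reads, and then by the same ratio of the median gene tested, to give a shared-read ratio. It was 11.4 for Eif3j1, 8.77 for Eif4a1, 6.63 for Eif2s2, 6.12 for Eif4e3, 3.92 for Eif3m, 1.92 for Eif1, 1.77 for Eif2s3x and 1.52 for Eif4e, and between 0.990 and 1.42 for the other 44 genes tested. Values of these 8 genes are uncertain for that reason, and the authors' means are given beside them, with no error since they are single values. The folds of those means ran 1.07 times above the unique-read folds in the median gene, so each is also given as a fold divided by that offset.

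**Figure D1:**
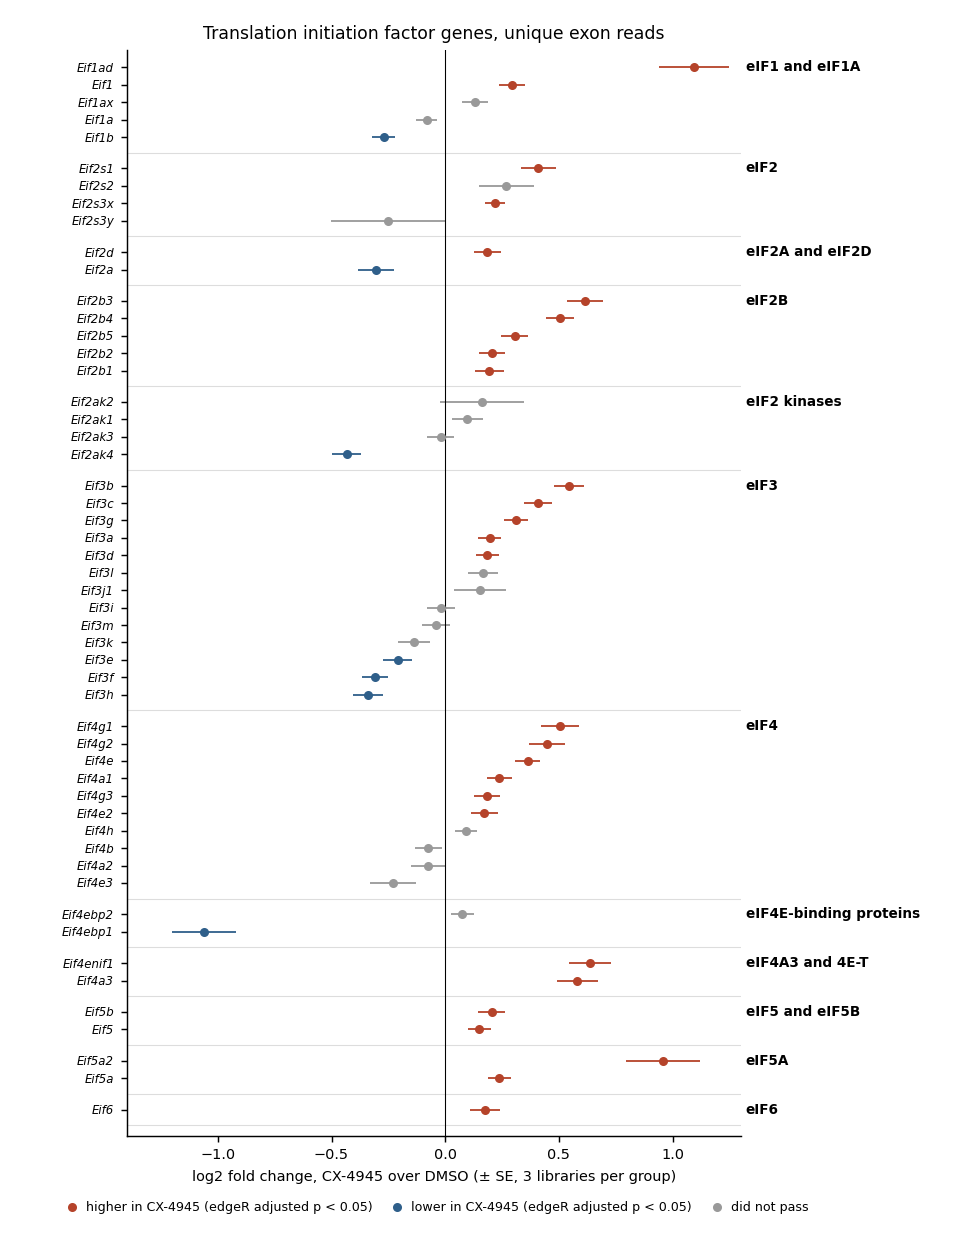
Log2 fold change (CX-4945 over DMSO, horizontal axis, ± SE) of the 52 tested initiation factor genes, grouped by role and coloured by whether the gene rose, fell or did not pass an adjusted p of 0.05. All 5 eIF2B genes lie right of 0, eIF3 genes lie on both sides, and Eif4ebp1 lies farthest left at -1.06.

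The strongest fall was at the brake on cap binding. Eif4ebp1 (chr8:27260327-27275656, mm10) encodes 4E-BP1, the mTORC1 substrate that holds eIF4E away from the cap. It had 123, 112 and 160.5 CPM with CX-4945, against 291, 235 and 299.99 CPM with DMSO. Every CX-4945 library was below every DMSO library, and library 6 was the highest of its group. Eif4ebp1 fell 2.08-fold (log2 change -1.06 with SE 0.14, adjusted p = 0.000351, interval -1.38 to -0.74). Eif4ebp2, its paralog with the same role, had 137, 133 and 138 CPM with CX-4945, against 124, 135 and 127 CPM with DMSO. Those groups overlapped and Eif4ebp2 did not pass (log2 change 0.08 with SE 0.05, adjusted p = 0.233). The reads of Eif4ebp1 per read of Eif4ebp2 were 0.900, 0.847 and 1.17 with CX-4945 and 2.34, 1.73 and 2.37 with DMSO.

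The target of that brake moved the other way. Eif4e encodes the cap-binding protein eIF4E and had 98.1, 101 and 98.5 CPM with CX-4945, against 77.9, 80.6 and 72.9 CPM with DMSO. The groups stood clear of each other, and Eif4e rose 1.29-fold (log2 change 0.36 with SE 0.05, adjusted p = 0.000655). The ratio of Eif4ebp1 to Eif4e unique exon reads was 1.26, 1.12 and 1.63 with CX-4945 and 3.74, 2.91 and 4.12 with DMSO. That ratio is of reads per gene and describes RNA, not proteins. With shared reads the authors' deposited mean was 36.9 RPKM with CX-4945 and 26.5 RPKM with DMSO, 1.3003-fold after the offset for Eif4e.

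**Figure D2:**
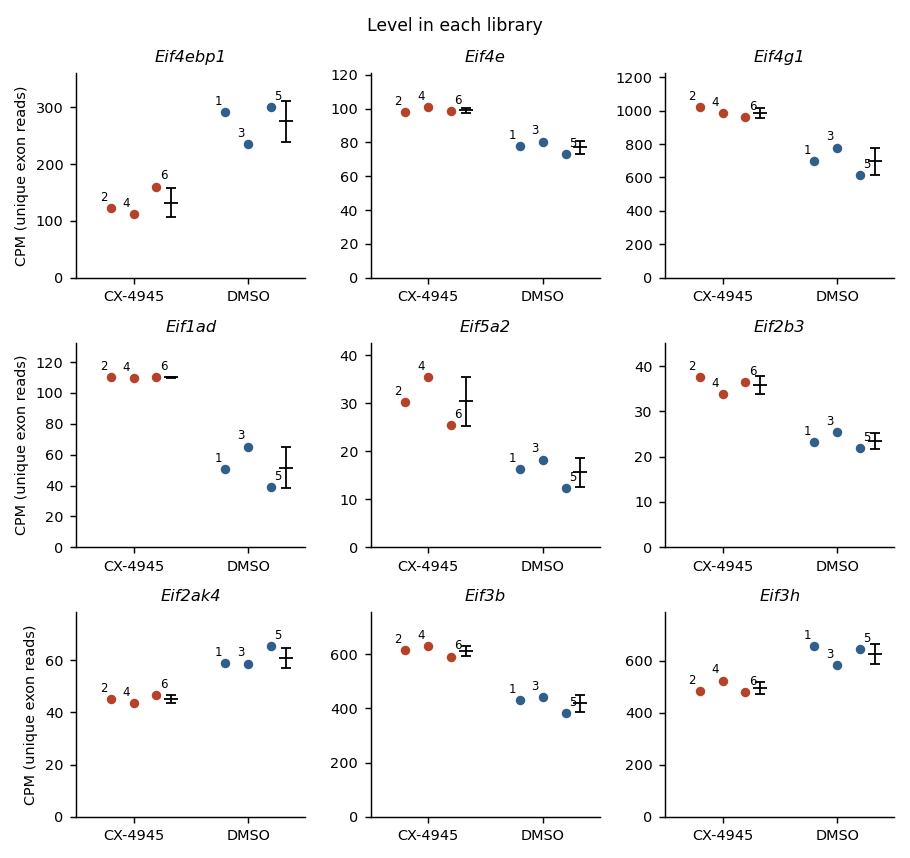
CPM of unique exon reads of 9 initiation factor genes in each library, CX-4945 left and DMSO right, with the library number beside each point and the mean ± SD (n = 3) as a bar. Eif4ebp1, Eif2ak4 and Eif3h are lower in all 3 CX-4945 libraries, and the other 6 genes are higher in all 3.

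Among the eIF4 factors, 6 of 10 tested genes rose and 0 fell in unique exon reads by edgeR or DESeq2 (and 0 were lower at an unadjusted p under 0.05), with a median log2 fold change of 0.18. By edgeR 60.0% of them rose, against 30.6% of all genes tested, while 31.3% of all genes fell. Eif4g1, the scaffold that joins eIF4E, eIF4A and eIF3, had 1019.6, 983 and 959.95 CPM with CX-4945, against 696, 778 and 616 CPM with DMSO, a 1.42-fold rise (log2 change 0.50 with SE 0.08, adjusted p = 0.00114). Eif4g2 encodes DAP5, a relative of eIF4G that lacks the eIF4E-binding site. It had 1109, 1144 and 1089 CPM with CX-4945, against 817, 901 and 732 CPM with DMSO, a 1.36-fold rise (log2 change 0.45 with SE 0.08, adjusted p = 0.00136). For both scaffolds DMSO library 3 was the highest and library 5 the lowest of the DMSO group, and no DMSO library reached a CX-4945 library. Eif4g3, another scaffold of the eIF4G type, had 341, 324 and 329.7 CPM with CX-4945, against 289, 309.6 and 277 CPM with DMSO (log2 change 0.18 with SE 0.06, adjusted p = 0.0213). Leaving out CX-4945 library 2 (adjusted p = 0.0929) or DMSO library 1 (0.0738) ended its call.

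Eif4a1, the main helicase of the complex, had 175, 173 and 173 CPM with CX-4945, against 151, 153 and 138 CPM with DMSO (log2 change 0.24 with SE 0.06, adjusted p = 0.00578). With shared reads it was the highest eIF4 gene per length, and the authors' deposited mean was 241 RPKM with CX-4945 and 202 RPKM with DMSO, 1.12-fold after the offset. Its paralog Eif4a2 did not pass (log2 change -0.08 with SE 0.07, adjusted p = 0.4), nor did the helicase cofactors Eif4b (log2 change -0.07 with SE 0.06, adjusted p = 0.308) and Eif4h (log2 change 0.09 with SE 0.05, adjusted p = 0.135). Eif4b, the most abundant eIF4 gene per length in unique reads at 265 RPKM with CX-4945 and 279 RPKM with DMSO, had 1020.3, 1073 and 966 CPM with CX-4945, against 1114, 1039 and 1068 CPM with DMSO, and the groups overlapped. Eif4e2, a cap-binding homolog that acts in repression, rose slightly (log2 change 0.17 with SE 0.06, adjusted p = 0.0338), and that call was lost in 5 of the 6 fits with 1 library left out, the exception being that without DMSO library 3 (adjusted p up to 0.115). Eif4e3, another cap-binding homolog, did not pass (log2 change -0.23 with SE 0.10, adjusted p = 0.0808), and with shared reads the authors' deposited mean was 18.9 RPKM with CX-4945 and 21.1 RPKM with DMSO, 0.835-fold after the offset.

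Eif4a3 and Eif4enif1 share the names of this group but have other main roles. Eif4a3 is the helicase of the exon junction complex deposited at splice junctions, and had 165, 154 and 159 CPM with CX-4945, against 106, 121 and 92.6 CPM with DMSO, a 1.49-fold rise (log2 change 0.58 with SE 0.09, adjusted p = 0.000782). Eif4enif1 encodes 4E-T, a carrier and repressor of eIF4E, and had 35.3, 33.4 and 36.7 CPM with CX-4945, against 22.4, 25.4 and 20.02 CPM with DMSO, a 1.55-fold rise (log2 change 0.64 with SE 0.09, adjusted p = 0.000554). Neither group overlapped the other for these genes.

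Promoter windows were looked at for a sequence shared by genes that rose together. RefSeq windows (GRCm38.p6, the mm10 assembly, 250 bases before to 50 after each annotated start) were found for 44 of the 56 genes. They were 57 windows in all, including that of the untested Eif2c5. The E-box CACGTG, which reads the same on both strands and is a binding sequence of MYC and related factors, was in 12 of the 57 windows (21.1%), which belong to 10 genes, and in 10.0% of the 11797 windows of all genes tested. The 10 genes were Eif3a, Eif4a1, Eif4e, Eif4g1, Eif5a and Eif5a2, which rose, Eif1b and Eif3f, which fell, and Eif3k and Eif4h, which did not pass. By direction it was in 8 of 37 windows of genes that rose (21.6%) and 2 of 5 of genes that fell (40.0%). For genes that did not pass it was in 2 of 14 (14.3%), so the E-box was not particular to genes that rose. The ETS sequence CCGGAAG was in 33.3% of the windows (17.5% over tested genes), the GC box GGGCGG in 70.2% (62.5%), the NRF1 sequence GCATGCG in 7.02% (6.36%) and the ATF4-type core TGATGCA in 0 of 57 (2.01%), each on either strand. Several genes have more than 1 window, some of them overlapping, so windows are not independent, and a match describes letters only. The stretches around the E-box of the 3 subunits of the cap-binding complex are shown because all 3 genes rose, with the E-box in capitals.
Eif4e: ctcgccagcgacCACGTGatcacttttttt
Eif4g1: ggcagtgggtgtCACGTGatggggcggagc
Eif4a1: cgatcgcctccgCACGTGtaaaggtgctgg
The Eif4e stretch is chr3:138527028-138527057 on the plus strand, where the E-box begins 228 bases before the second annotated start, and the window of its first start has none. The Eif4g1 stretch is chr16:20672661-20672690 on the plus strand, with the E-box 54 bases before the start. The Eif4a1 stretch is chr11:69672595-69672624 on the minus strand, with the E-box 189 bases before the start.

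The genes of eIF2, which delivers the initiator tRNA, and of eIF2B, which recharges eIF2, rose or did not pass. Of the 4 eIF2 subunit genes 2 rose, while 30.6% of all genes tested rose and 31.3% fell. Eif2s1 encodes the alpha subunit, the one that stress kinases phosphorylate, and had 164, 175 and 159 CPM with CX-4945, against 124, 137 and 113 CPM with DMSO, a 1.33-fold rise (log2 change 0.41 with SE 0.08, adjusted p = 0.00192). Eif2s3x, the X-linked gene of the gamma subunit, had 215, 221 and 220.2 CPM with CX-4945, against 186, 186 and 192 CPM with DMSO, a 1.16-fold rise (log2 change 0.22 with SE 0.04, adjusted p = 0.00318); with shared reads the authors' deposited mean was 71.2 RPKM with CX-4945 and 57.6 RPKM with DMSO, 1.15-fold after the offset. Both genes had every CX-4945 library above every DMSO library. Eif2s2 encodes the beta subunit, the CK2 substrate. It had 15.4, 16.1 and 17.3 CPM with CX-4945, against 14.8, 11.1 and 14.6 CPM with DMSO and did not pass (log2 change 0.27 with SE 0.12, adjusted p = 0.0845). With shared reads the authors' deposited mean was 10.99 RPKM with CX-4945 and 8.88 RPKM with DMSO, 1.16-fold after the offset.

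Eif2s3y, the Y-linked partner of Eif2s3x, had 91.7, 52.0 and 78.5 CPM with CX-4945, against 107, 58.3 and 99.1 CPM with DMSO, and did not pass (log2 change -0.25 with SE 0.25, adjusted p = 0.408, interval -0.83 to 0.32). CX-4945 library 4 and DMSO library 3 were the low ones. Their numbers are neighbours, and no label says whether neighbouring numbers were cultured or sequenced together. With neighbouring numbers as a block, an edgeR fit tried after the data had been seen, Eif2s3y passed as lower (log2 change -0.25, adjusted p = 0.00363). Other Y-linked genes spread less within a group. Ddx3y had 69.4, 70.8 and 62.00 CPM with CX-4945, against 85.4, 77.8 and 72.8 CPM with DMSO, Kdm5d had 44.6, 43.9 and 41.5 CPM with CX-4945, against 61.3, 60.8 and 61.1 CPM with DMSO, and Uty had 22.4, 21.3 and 22.3 CPM with CX-4945, against 41.95, 36.9 and 49.6 CPM with DMSO. Uty was also lowest of its group in libraries 4 and 3, by a smaller margin, while in Ddx3y and Kdm5d the lowest CX-4945 library was 6. All 3 were lower with CX-4945 (log2 fold changes -0.22, -0.50 and -0.96, edgeR adjusted p = 0.0329, 0.000124 and 0.000142). Xist, expressed from the inactive X of female cells, had 0, 0.0442 and 0 CPM with CX-4945 and 0 CPM in each DMSO library, so all 6 libraries carried Y-linked reads and almost none of Xist.

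**Figure D3:**
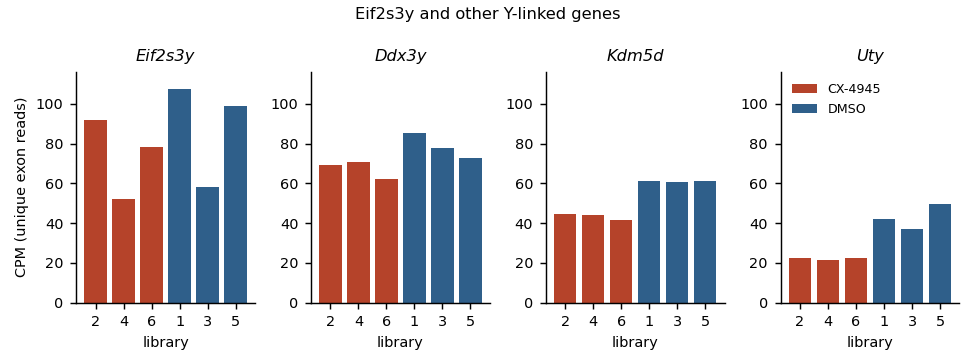
Eif2s3y and other Y-linked genes in each library (bars, CPM of unique exon reads, CX-4945 left, DMSO right, library number under each bar). Eif2s3y is low in CX-4945 library 4 (52.0 CPM) and DMSO library 3 (58.3 CPM), while Ddx3y, Kdm5d and Uty vary less between libraries of a group.

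All 5 genes of eIF2B, the exchange factor that recharges eIF2 with GTP, rose, with a median log2 fold change of 0.30. Over all genes tested 30.6% rose. Eif2b3, its gamma subunit, had 37.7, 33.8 and 36.4 CPM with CX-4945, against 23.2, 25.5 and 21.8 CPM with DMSO, a 1.53-fold rise (log2 change 0.61 with SE 0.08, adjusted p = 0.000289). Eif2b4, the delta subunit, had 79.95, 79.6 and 77.7 CPM with CX-4945, against 56.2, 59.4 and 51.6 CPM with DMSO, a 1.42-fold rise (log2 change 0.50 with SE 0.06, adjusted p = 0.000242). Eif2b5, the catalytic epsilon subunit, had 136, 137 and 137 CPM with CX-4945, against 116, 115 and 101 CPM with DMSO, a 1.24-fold rise (log2 change 0.30 with SE 0.06, adjusted p = 0.00277). The groups did not overlap for any of the 5, all higher with CX-4945, as for 35.0% of all genes tested. Eif2b2, the beta subunit and the most abundant per length at 55.2 RPKM with CX-4945 and 47.8 RPKM with DMSO, had 102, 108 and 102 CPM with CX-4945, against 91.1, 93.8 and 85.4 CPM with DMSO (log2 change 0.21 with SE 0.06, adjusted p = 0.0122). Eif2b1, the alpha subunit, rose least (log2 change 0.19 with SE 0.06, adjusted p = 0.027), and its call was lost without CX-4945 library 2 or 4 or DMSO library 1 or 5 (adjusted p up to 0.0872). Summed per length over the 5 genes, eIF2B RNA was 160 ± 2.68 RPKM with CX-4945 and 131 ± 7.98 RPKM with DMSO (mean ± SD, n = 3 each).

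Of the 4 eIF2 kinase genes 1 fell and the other 3 did not pass. That share of falls was no larger than the 31.3% over all genes tested. Eif2ak4 encodes GCN2, which senses uncharged tRNA, and had 45.04, 43.7 and 46.7 CPM with CX-4945, against 58.8, 58.8 and 65.3 CPM with DMSO. All CX-4945 libraries were below all DMSO libraries, a 1.35-fold fall (log2 change -0.43 with SE 0.06, adjusted p = 0.000543). Eif2ak1 encodes the heme-regulated kinase HRI and was the most abundant of the 4 per length. It had 83.3, 88.7 and 82.4 CPM with CX-4945, against 76.8, 86.4 and 74.7 CPM with DMSO and did not pass (log2 change 0.10 with SE 0.07, adjusted p = 0.242), although it passed without DMSO library 3 (adjusted p = 0.0396). Eif2ak2, the kinase PKR that binds double-stranded RNA, had 29.1, 24.4 and 43.2 CPM with CX-4945, against 28.1, 27.1 and 31.5 CPM with DMSO, with CX-4945 library 6 well above the rest, and did not pass (log2 change 0.16 with SE 0.19, adjusted p = 0.475). Without library 6 its log2 fold change was -0.11 (adjusted p = 0.408). Eif2ak3, the endoplasmic reticulum kinase PERK, did not pass (log2 change -0.02 with SE 0.06, adjusted p = 0.79).

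Genes of the integrated stress response, which follows phosphorylation of eIF2 alpha, were read for comparison from a list of 13. Of these 10 rose (76.9%, against 30.6% of all genes), 1 fell and 2 did not pass, with a median log2 fold change of 0.58. The CX-4945 libraries were unequal in them, with library 6 the highest of its group in 11 of the 13 genes and library 4 the lowest in 11. Without library 6, 9 rose and 1 fell. Atf4, its central transcription factor, had 373, 330.5 and 431 CPM with CX-4945, against 237, 253 and 247 CPM with DMSO, a log2 change of 0.62 with SE 0.09 (adjusted p = 0.000575). Trib3 and Asns, targets of ATF4, had log2 fold changes of 1.33 and 1.10 (adjusted p = 0.000365 and 0.000123). Ppp1r15b, the constitutive subunit of the eIF2 alpha phosphatase, rose by 0.58 (adjusted p = 0.0001), while Ppp1r15a, its stress-induced counterpart, fell by 0.39 on the log2 scale (adjusted p = 0.0163). Leaving out CX-4945 library 2 ended that call. Gcn1l1 encodes GCN1, which activates GCN2, and rose by 0.47 (adjusted p = 0.000468), the direction opposite to Eif2ak4. Phosphorylation of eIF2 was not measured.

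Eif2a and Eif2d encode proteins that can bring an initiator tRNA without eIF2, and they moved in opposite directions. Eif2a had 104, 112 and 108 CPM with CX-4945, against 135, 119 and 147 CPM with DMSO, a 1.24-fold fall (log2 change -0.30 with SE 0.08, adjusted p = 0.00909). Eif2d had 73.3, 72.6 and 75.1 CPM with CX-4945, against 65.6, 68.4 and 60.4 CPM with DMSO (log2 change 0.19 with SE 0.06, adjusted p = 0.0256), and its call held with all libraries and without DMSO library 3, but with any other library left out the adjusted p lay between 0.0503 and 0.0731.

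Of 13 eIF3 genes tested, 5 rose, 3 fell and 5 did not pass, with a median log2 fold change of 0.15. The shares, 38.5% higher and 23.1% lower, lie near the 30.6% and 31.3% over all genes. Eif3b, a scaffold subunit of the core, had 616, 629 and 591 CPM with CX-4945, against 431, 443 and 383 CPM with DMSO, a 1.46-fold rise (log2 change 0.55 with SE 0.07, adjusted p = 0.000223). Eif3c, another core subunit, had 659.8, 645 and 733 CPM with CX-4945, against 526, 508 and 503 CPM with DMSO, a 1.33-fold rise (log2 change 0.41 with SE 0.06, adjusted p = 0.000732). Eif3g, an RNA-binding subunit, had 215, 215 and 220.02 CPM with CX-4945, against 185, 170.4 and 169 CPM with DMSO, a 1.24-fold rise (log2 change 0.31 with SE 0.05, adjusted p = 0.00114). For these 3 the groups stood clear of each other. Eif3a, the largest core subunit, had 896, 905 and 871 CPM with CX-4945, against 769, 762 and 800.3 CPM with DMSO (log2 change 0.20 with SE 0.05, adjusted p = 0.00957), and its adjusted p was 0.0504 without CX-4945 library 2. Eif3d, which can bind the cap of some mRNAs, also rose (log2 change 0.18 with SE 0.05, adjusted p = 0.0117).

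The 3 genes that fell encode subunits of the PCI/MPN octamer of eIF3, to which the products of Eif3a, Eif3c, Eif3k, Eif3l and Eif3m also belong. Eif3h, a subunit with an MPN domain and the most abundant eIF3 gene per length at 396 RPKM with CX-4945 and 501 RPKM with DMSO, had 484, 523 and 480.2 CPM with CX-4945, against 655, 583 and 644 CPM with DMSO, a 1.27-fold fall (log2 change -0.34 with SE 0.06, adjusted p = 0.00213). Eif3f, the other MPN subunit, had 411, 415 and 427 CPM with CX-4945, against 532, 482 and 537 CPM with DMSO, a 1.24-fold fall (log2 change -0.31 with SE 0.06, adjusted p = 0.00196). For both genes DMSO library 3 was the lowest DMSO library and still stood above every CX-4945 library. Eif3e, a PCI subunit, had 242, 272 and 248 CPM with CX-4945, against 302, 277 and 303 CPM with DMSO (log2 change -0.21 with SE 0.06, adjusted p = 0.0192), but CX-4945 library 4 came close to DMSO library 3, and the call was lost without CX-4945 library 2 (adjusted p = 0.0968), without CX-4945 library 6 (0.0602), without DMSO library 1 (0.0722) and with scaling by library size alone.

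Of the other eIF3 genes, Eif3k (log2 change -0.14 with SE 0.07, adjusted p = 0.12), Eif3m (log2 change -0.04 with SE 0.06, adjusted p = 0.586) and Eif3i (log2 change -0.02 with SE 0.06, adjusted p = 0.818) did not pass. For Eif3m, with shared reads the authors' deposited mean was 48.9 RPKM with CX-4945 and 45.8 RPKM with DMSO, 0.996-fold after the offset. Eif3k passed without DMSO library 3 (adjusted p = 0.0431). Eif3l lay at the threshold (log2 change 0.17 with SE 0.07, adjusted p = 0.0541) and passed without DMSO library 3 (adjusted p = 0.0453). Eif3j1, the loosely bound subunit known as a CK2 substrate in human cells, did not pass (log2 change 0.15 with SE 0.11, adjusted p = 0.276), and with shared reads the authors' deposited mean was 18.3 RPKM with CX-4945 and 15.5 RPKM with DMSO, 1.1014-fold after the offset. Summed per length over the 14 rows (unique exon reads), eIF3 RNA did not separate the groups, at 2135 ± 36.3 RPKM with CX-4945 and 2121 ± 89.0 RPKM with DMSO (mean ± SD, n = 3 each). The same sum for the 11 eIF4 rows was 929 ± 23.1 RPKM with CX-4945 and 845 ± 16.9 RPKM with DMSO, with no overlap between libraries. Both sums miss shared reads, so Eif3j1, Eif3m, Eif4a1, Eif4e3 and Eif4e may be undercounted in them. Eif4a1 entered the eIF4 sum at 40.1 RPKM with CX-4945 and 34.0 RPKM with DMSO, while its authors' deposited means were 241 and 202 RPKM.

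**Figure D4:**
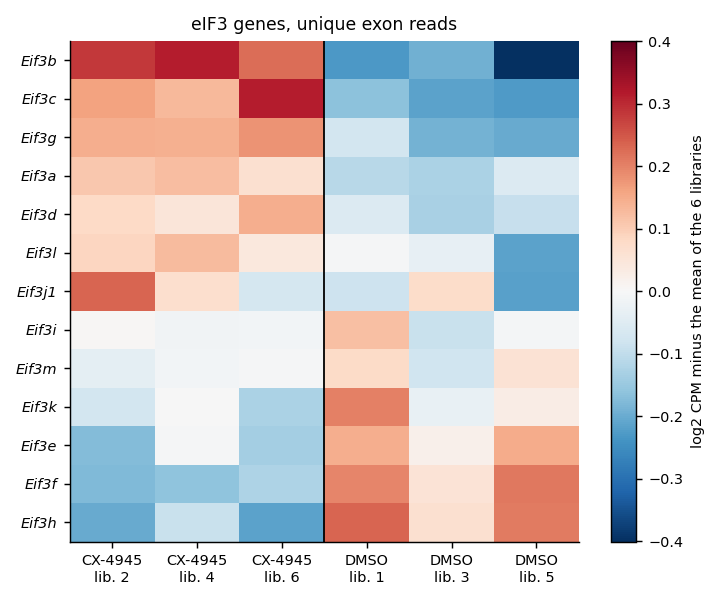
Level of each tested eIF3 gene in each library, relative to that gene's mean over the 6 libraries (log2 scale), with CX-4945 libraries left and genes ordered by their change. Eif3b, Eif3c, Eif3g, Eif3a and Eif3d are higher in every CX-4945 library than in every DMSO library, as is Eif3l, which did not pass, and Eif3h, Eif3f and Eif3e are lower.

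The factors eIF1 and eIF1A act in scanning and at the start codon. Of the 5 genes with these names 2 rose, Eif1 and Eif1ad, and 1 fell, Eif1b. Eif1ad has the name for an eIF1A-like domain and encodes a nuclear protein, described in the next paragraph. The shares over all genes tested were 30.6% higher and 31.3% lower. Eif1, which guards start codon choice, had 145, 133 and 149 CPM with CX-4945, against 115, 114 and 119.9 CPM with DMSO, a 1.22-fold rise (log2 change 0.29 with SE 0.06, adjusted p = 0.00262). Eif1b, its close paralog, had 64.3, 65.2 and 67.05 CPM with CX-4945, against 77.01, 81.2 and 78.8 CPM with DMSO, a 1.21-fold fall (log2 change -0.27 with SE 0.05, adjusted p = 0.00188). The groups did not overlap for either gene. The ratio of Eif1b to Eif1 unique exon reads was 0.445, 0.490 and 0.449 with CX-4945 and 0.670, 0.713 and 0.657 with DMSO. For Eif1, with shared reads the authors' deposited mean was 88.04 RPKM with CX-4945 and 73.6 RPKM with DMSO, 1.12-fold after the offset. Eif1ax (log2 change 0.13 with SE 0.06, adjusted p = 0.0729) and Eif1a (log2 change -0.08 with SE 0.05, adjusted p = 0.151), which encode eIF1A, did not pass.

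Eif1ad (chr19:5366813-5371511, mm10) encodes a nuclear protein with an eIF1A-like domain and had the largest change of the set. It had 110.4, 109.7 and 110.3 CPM with CX-4945, against 50.9, 65.2 and 38.7 CPM with DMSO, a 2.13-fold rise (log2 change 1.09 with SE 0.16, adjusted p = 0.000499). The CX-4945 libraries were within 1 CPM of each other, while the DMSO libraries spread widely, with library 3 highest. Its exons overlap those of Banf1 on the opposite strand over 428 bases, in a gene model of 2469 exon bases. Banf1 had 176, 176 and 169.6 CPM with CX-4945, against 128, 121 and 116 CPM with DMSO (log2 change 0.51 with SE 0.05, adjusted p = 0.000109), and the counting strand is not given in the sources used here, so the part of Banf1 reads in Eif1ad was not tested.

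Eif5, the GTPase-activating protein of eIF2 and a CK2 substrate, had 348, 345 and 367 CPM with CX-4945, against 319, 325 and 312 CPM with DMSO (log2 change 0.15 with SE 0.05, adjusted p = 0.0276). Without CX-4945 library 2 or 6 or DMSO library 1 or 5 it no longer passed (adjusted p up to 0.0956). Eif5b, the GTPase that joins the ribosomal subunits, had 263, 272 and 254 CPM with CX-4945, against 241, 231 and 213 CPM with DMSO (log2 change 0.20 with SE 0.06, adjusted p = 0.017), and was lost without CX-4945 library 2 (adjusted p = 0.0576) or 4 (0.0631). Its exons overlap those of Rev1 on the opposite strand over 1643 bases. Eif6, which keeps the large subunit from joining early, had 209, 207 and 206 CPM with CX-4945, against 189, 196 and 167 CPM with DMSO (log2 change 0.17 with SE 0.07, adjusted p = 0.0447), and that call was lost in 5 of the 6 fits with 1 library left out, all but the one without DMSO library 3 (adjusted p up to 0.121).

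Eif5a, whose product carries hypusine and relieves stalled ribosomes, was the most abundant gene of the set per length, at 622 RPKM with CX-4945 and 528 RPKM with DMSO. It had 1480.2, 1507 and 1446 CPM with CX-4945, against 1268, 1263 and 1231 CPM with DMSO, a 1.18-fold rise (log2 change 0.24 with SE 0.05, adjusted p = 0.00405). Eif5a2, its far less abundant paralog, had 30.2, 35.5 and 25.5 CPM with CX-4945, against 16.2, 18.3 and 12.4 CPM with DMSO, a 1.94-fold rise (log2 change 0.96 with SE 0.16, adjusted p = 0.00117). In both genes all CX-4945 libraries were above all DMSO libraries. Of the 7 genes for hypusine or diphthamide synthesis 4 rose and 0 fell by edgeR, with 0 lower at an unadjusted p under 0.05 either. The 4 that rose were 57.1%, against 30.6% of all genes tested, and 31.3% of all genes fell. Those that rose were Dhps and Dohh, the pair of enzymes that make hypusine, with log2 fold changes of 0.58 and 0.40 (adjusted p = 0.000101 and 0.00275), and the diphthamide genes Dph3 and Dph2 (0.54 and 0.36, adjusted p = 0.000746 and 0.00398).

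A stretch of pyrimidines led by a C at the transcription start marks many mRNAs whose translation follows mTORC1. A C followed by at least 4 pyrimidines at the annotated start was in 3 of the 57 windows (5.26%), against 2.35% of the windows of all tested genes. Both tested genes that had it are shown because they moved in opposite directions, Eif3f down and Eif2s3x up with CX-4945, with the tract of 11 bases in capitals and 10 bases before it. In both the run of pyrimidines begins before the annotated start, and the 11 bases are counted from that start. The whole run is led by a C in Eif3f and by a T in Eif2s3x. Whole C-led runs beginning within 10 bases of the start had 15 bases in Eif3f and 0 in Eif2s3x. They had 12 in Eif2s3y, 9 in Eif3l and 8 in Eif2b2, among others, so which genes have a tract depends on the base taken as the start.
Eif3f: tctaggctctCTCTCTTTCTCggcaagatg
Eif2s3x: gagcattttcCTTTTCTCTCCgagcaagat
The Eif3f stretch is chr7:108934405-108934434 on the plus strand and the Eif2s3x stretch is chrX:94212632-94212661 on the minus strand (GRCm38.p6). The remaining window was that of Eif2c5, which had 0 reads. Eif3e, Eif3h and Eif4ebp1, which fell, had no window to search.

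Other genes of the translation machinery were read from lists to place the initiation factors. Of 11 elongation genes 4 rose and 4 fell (median log2 fold change -0.12), 36.4% each way, near the 30.6% higher and 31.3% lower over all genes. Eef2, which moves the ribosome along the mRNA, fell by 0.48 on the log2 scale (adjusted p = 0.00126), Eef1a1 and Eef1b2, which deliver aminoacyl-tRNA, fell by 0.29 and 0.32 (adjusted p = 0.0113 and 0.00202), and Eefsec and mitochondrial Gfm1 rose by 0.36 and 0.64 (adjusted p = 0.00127 and 0.000213). Of 8 tested termination and recycling genes 4 rose and 1 fell (12.5%), with a median of 0.36. Abce1, which splits ribosomes after termination, rose by 0.61, and the release factors Etf1 and Gspt1 by 0.54 and 0.35 (adjusted p = 0.000206, 0.000409 and 0.000791), while Hbs1l, a ribosome rescue factor, fell by 0.38 (adjusted p = 0.000331).

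Of 15 cap and poly(A) regulators 5 rose and 5 fell (median 0.04), 33.3% each way, near the shares over all genes. Ncbp1, the large nuclear cap-binding subunit, Ddx3x, a helicase of initiation, and Larp1, a repressor of mRNAs with a 5′ pyrimidine tract, rose by 0.57, 0.50 and 0.40 (adjusted p = 0.00076, 0.000821 and 0.00186). Pabpc1, the poly(A)-binding partner of eIF4G, and Paip2, its inhibitor, fell by 0.38 and 0.44 (adjusted p = 0.00192 and 0.000268). Of 10 genes of the mTORC1 branch, which controls 4E-BP1, 6 rose (60.0%, against 30.6% of all genes) and 1 fell (10.0%, against 31.3%), with a median of 0.19. Rheb, the GTPase that activates mTORC1, rose by 0.54 (adjusted p = 9.91e-05), and the S6 kinase genes Rps6kb1 and Rps6kb2 rose by 0.25 and 0.47 (adjusted p = 0.00793 and 0.000218). Deptor, an inhibitor of mTOR, had 2.97 ± 0.221 CPM with CX-4945 and 1.89 ± 0.102 CPM with DMSO (mean ± SD, n = 3 each) and rose by 0.65, with an adjusted p of 0.00614. Tsc2, a brake on Rheb, fell by 0.17 (adjusted p = 0.0385).

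The spread between DMSO libraries ran along the same axis as the difference between the groups. Among the 28 initiation factor genes that rose, DMSO library 3 was the highest DMSO library in 19 and library 5 the lowest in 24. Among the 7 that fell, library 3 was the lowest in 6 and library 5 the highest in 5. The same held over all genes, where library 3 was the highest DMSO library for 71.1% of the 3831 genes that rose and the lowest for 71.3% of the 3910 that fell. Of the 35 calls, 26 were kept in every fit with 1 library left out, and the 9 lost in some were those named above, Eif2d, Eif2b1, Eif3a, Eif3e, Eif4e2, Eif4g3, Eif5, Eif5b and Eif6.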

How the data were processed

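A total of 6 libraries were analysed, one per culture. The labels' protocols state Trizol extraction of total RNA and Illumina sequencing, and the submitters' processing notes name the build mm10. No aligner, annotation release, counting option or strand setting was given. The authors deposited, per the file headers, counts of unique exon reads, as whole reads per gene without normalization, and for each group a column of means with no unit. From their values the means were taken as RPKM of exon reads with shared reads included, scaled to exon length and library total. No header states this. The table also holds 84 other per-library value columns, which were not used. Column names give the group and a number that no label carries, so 1 measure per library was taken, and the fits planned on total exon reads and on intron reads were not run. Same-group libraries differed beyond sampling noise (chi-square per degree of freedom 3.92 to 27.7) and none was merged.

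The edgeR 4.0.16 quasi-likelihood F test in R 4.3.3 was run on genes that pass filterByExpr (at least 10 reads, total at least 15), with TMM factors between 0.971 and 1.02, as a two-sided test. It covered 12502 genes. Calls needed a Benjamini-Hochberg adjusted p under 0.05 over all these genes, and biological variation was 8.55%. SE is the log2 fold change over the square root of F, and intervals are at 95%. CPM are scaled with TMM, and RPKM of unique exon reads divide that CPM by exon length in kilobases, a scale that differs from the authors' RPKM by its library total.

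The procedure was tested on simulated data with 12383 testable genes. Recovery was 28.0% for a 1.25-fold change, 75.5% for 1.5-fold, 85.7% for 2-fold and 100% for 4-fold, and 4 of 12185 unchanged genes were called. Only 49 or 50 genes were changed at each fold, while 61.9% of all genes were called in the real data. An adjusted p is harder to pass where few genes change, so these recoveries do not carry over to the real fit. Alternatives were median-ratio size factors, library size only, the DESeq2 1.42.0 Wald test, no filter beyond 1 read, a filter of 5 CPM in 3 libraries and leaving out each library. A block of neighbouring library numbers, and all of these settings for the stress response list, were added after the data had been seen.

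The initiation factor genes, their role groups and the other gene lists were chosen with earlier results of these data known. Each tested initiation factor gene is named. Values per library are given in each role group for up to 3 called genes with the widest change and for the most abundant per length, and for some further genes chosen after their values were seen. Other lists name up to 4 called genes with the smallest adjusted p and the most abundant gene, plus Ppp1r15a and Tsc2, the only genes of their lists that fell. Gene positions are the table's (mm10), with 1 added to starts. All 56 genes were in GENCODE M21, 34 with the same span. At least 100 exon bases overlapped a gene of the opposite strand in 11. Promoter windows are from RefSeq on GRCm38.p6.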

Additional observations from a re-analysis of the deposited data

How the results depend on the processing

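The counts of genes that rose (28) and fell (7) ranged from 20 to 30 and from 6 to 8 when 1 library was left out, and from 27 to 32 and from 6 to 9 under the other settings. DESeq2 and median-ratio factors left every one of the 52 calls as it was. Scaling by library size alone shifted the median of all genes to 0.060 (log2), added calls for Eif1ax, Eif2s2, Eif3l and Eif4h and ended that of Eif3e. Eif6 was lost with the filter of 5 CPM and with no filter. Genes that never passed changed sign in 7 instances. With library size alone the log2 fold change was 0.042 for Eif2ak3, 0.046 for Eif3i and 0.024 for Eif3m. It was -0.11 for Eif2ak2 without CX-4945 library 6, 0.023 for Eif2ak3 without DMSO library 3, 0.039 for Eif3i without DMSO library 1 and 0.0098 for Eif4a2 without DMSO library 5. The cause was not tested.

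No label pairs the libraries. A replicate block of neighbouring library numbers (1 with 2, 3 with 4, 5 with 6) was tried after the data had been seen. Correlations of deviations from the group means over 12502 genes were 0.094, 0.35 and 0.44 in these pairs. Among the other pairings, CX-4945 library 2 had 0.15 with DMSO library 3 and -0.20 with DMSO library 5. CX-4945 library 4 had -0.023 with DMSO library 1 and -0.33 with DMSO library 5. CX-4945 library 6 had -0.045 with DMSO library 1 and -0.43 with DMSO library 3. Since no label gives this pairing, the main fit does not use it, and whether neighbouring numbers share a replicate was not tested. With that block 30 genes rose and 9 fell. Eif2s2 (adjusted p = 0.0365), Eif3l (0.0191), Eif2s3y (0.00363) and Eif4e3 (0.0366) were added and no call was lost, which made 1 lower gene in eIF2 and 1 in eIF4 where there were 0, and 2 in the stress response list where there was 1. With 1 library left out the stress response list had 0 to 2 lower genes and 9 to 10 higher.

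The fits planned on total exon reads and on intron reads were not run, since column names give only the group and 1 measure per library was used. The simulation changed far fewer genes than were called in the real data, so it does not give the recovery of small changes here. A gene that did not pass is not shown to be unchanged. Shared reads limit the 8 genes with a ratio of 1.52 or more, and counts with those reads were not tested.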
